A study of Mus musculus with 4 samples.

Results

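The DNA replication genes described here are 44 mouse genes whose products license origins of replication, fire them, copy and join the strands, supply nucleotides, or restore chromatin behind the fork. They were taken as a named list, which was chosen with earlier results of these data known. All 44 had a probe on the array, out of 22907 genes that could be named. Their RNA was measured in 4 populations of EpCAM+ tumour cells sorted from the intestine of Lgr5CreERT2/+; Ctnnb1lox(ex3)/ox(ex3) mice, with 1 one-colour Agilent array for each population. The mice carry a Cre recombinase that tamoxifen activates in cells using the Lgr5 promoter, and a Ctnnb1 gene, encoding beta-catenin, whose exon 3 this Cre removes, which leaves a stabilised protein. Cells were collected 14 days after tamoxifen and sorted by Lgr5, a receptor of intestinal stem cells, and by a tuft cell marker, the receptor subunit IL17RB. This gave Lgr5+ cells with the marker (Lgr5+ tuft marker+) and without it (Lgr5+ tuft marker-), then Lgr5- cells with it (Lgr5- tuft marker+) and without it (Lgr5- tuft marker-), and values of the 4 arrays are given in that order throughout. All 4 populations share the genotype, the treatment and the time, so no comparison with normal tissue could be made. How many animals were pooled and which segment of the gut was used are not given in the sources used here.

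A cell prepares to copy its DNA in G1, when the origin recognition complex, Cdc6 and Cdt1 load the ring-shaped Mcm helicase onto origins. At the start of S phase the kinase of Cdc7 and Dbf4 and the factors Cdc45, Mcm10 and GINS turn the loaded helicase into a moving fork, on which DNA polymerases work with the sliding clamp PCNA, and E2F transcription factors drive many of these genes as cells commit to S phase. In the intestinal epithelium these genes are known as features of the dividing crypt cells, and they fall as cells differentiate and leave the crypt.

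Each population was on 1 array with no replicate, so the values below describe these 4 arrays, no test between populations was possible, and the number of arrays limits the precision. Levels are log2 signals relative to the array's 75th percentile, and differences are in log2 units, so that 1 unit is 2-fold. Between 60.2% and 69.0% of spots were well above background, which gave 15325 to 17154 genes per array. The sorted genes followed the labels: Il17rb was 6.75-fold higher with the tuft marker within Lgr5+ and at least 14.2-fold higher within Lgr5-, and Lgr5 was at least 7.34-fold higher in Lgr5+ cells within tuft marker+ and 5.23-fold higher within tuft marker-. Epcam was above background on all 4 arrays, with levels of 5.02, 5.22, 4.52 and 5.56. It was 2.06-fold lower with the tuft marker within Lgr5- (error 0.20 in log2) and 1.15-fold lower within Lgr5+. A difference against a gene that was not above background, or against a value raised to the lowest level measured on an array (its floor), is given as "at least". Such a limit holds for the processing used here, and other settings can give smaller differences.

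The Lgr5- tuft marker- array had the highest level for most of the replication genes. It was highest for 31 of the 44, or 70.5%, against 24.7% of all genes. The Lgr5- tuft marker+ array was highest for 5 of them (Gins2, Pola1, Chaf1b, Ung and E2f1), against 32.9% of all genes, the Lgr5+ tuft marker+ array for 6 (Mcm2, Mcm5, Mcm7, Dbf4, Rfc5 and Fen1), against 23.3%, and the Lgr5+ tuft marker- array for 2 (Mcm10 and Cdc45), against 19.2%. At the other end, 37 genes were above background and clear of the floor on every array, and the Lgr5- tuft marker+ array was lowest for 22 of these, or 59.5%, against 34.1% of all genes. Only Mcm10, Gins2 and E2f1 were lowest in Lgr5- tuft marker- cells, against 23% of all genes. With the authors' scaled values the first count was 25 of 44, against 18.3% of all genes, and the second 14 of 37, against 23.1%.

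**Figure D1:**
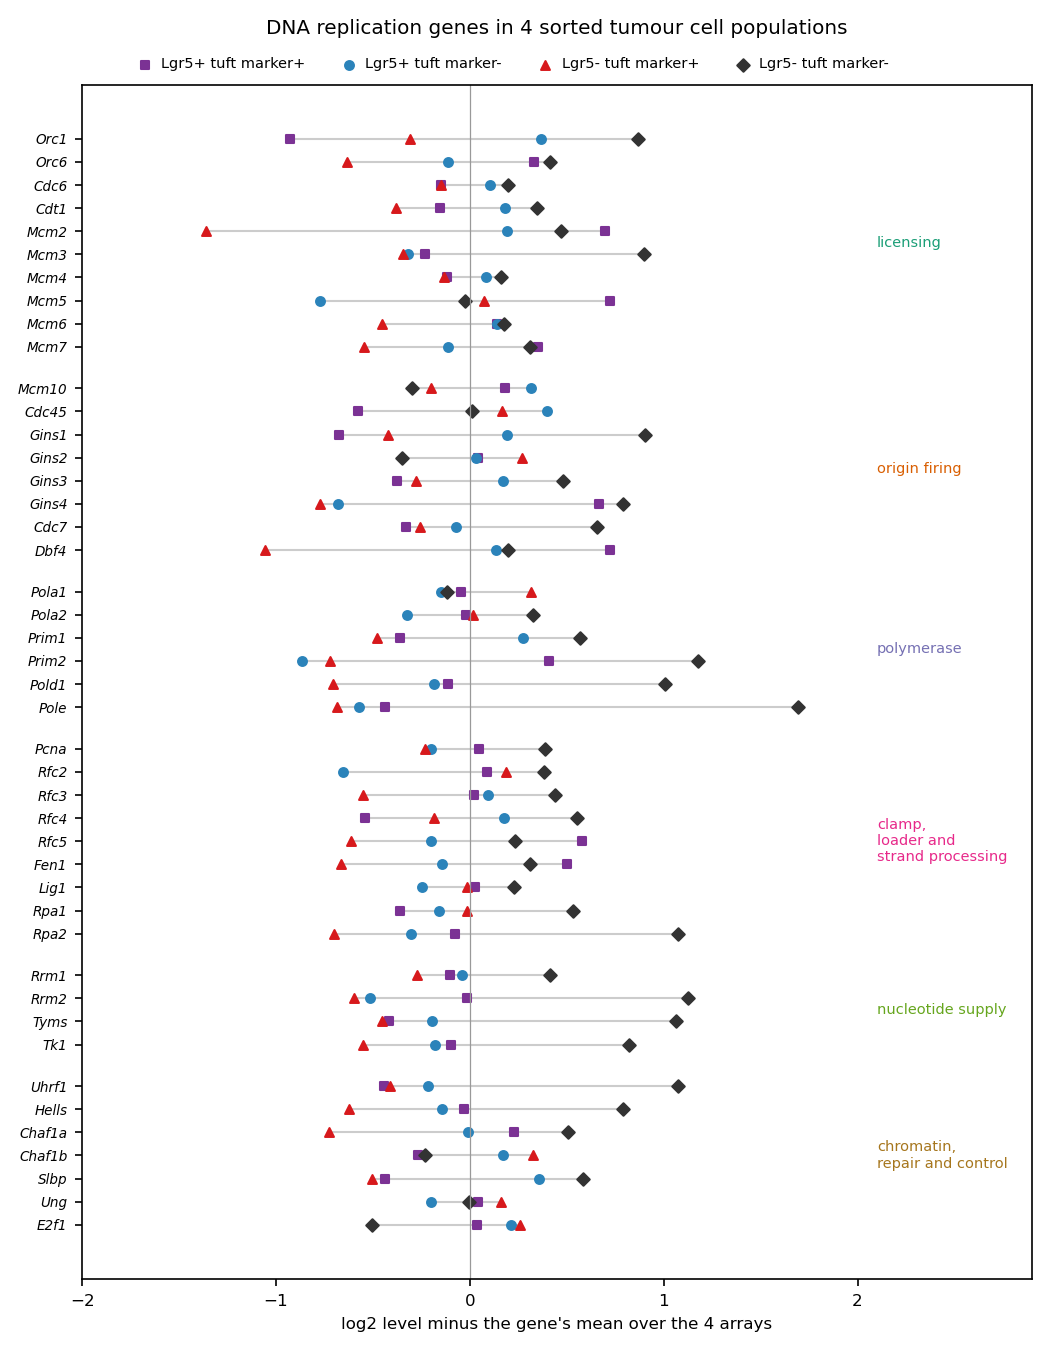
Level of each of the 44 genes on the 4 arrays, as the log2 level minus the gene's own mean over the arrays (horizontal axis), with genes grouped by role (vertical axis) and 1 point per array. The black diamonds of Lgr5- tuft marker- cells are the rightmost point for 31 genes, and the red triangles of Lgr5- tuft marker+ cells are leftmost for 22 of the 37 genes ranked at that end.

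Comparing tuft marker+ with tuft marker- cells asked how the genes differed with the tuft marker, within each Lgr5 class. Within Lgr5-, 36 of the 44 genes were lower in tuft marker+ cells, where 46.8% of all 17908 measured genes were lower, and 8 were higher, against 53.2%. At least 2-fold lower were 19 of the 44, against 12.3% of all genes, and none was 2-fold higher, against 16.6%. The median difference of the replication genes was -0.88, and that of all genes 0.08. After normexp background correction 5 were 2-fold lower, beside 789 of all 17908 genes, and the median was -0.43. With the authors' scaled values 12 were lower and 1 higher, beside 1168 and 4480 of all genes, with a median of -0.59. Within Lgr5+, 43 genes were measured, and 23 were higher and 20 lower in tuft marker+ cells, against 50.2% and 49.8% of all genes. There 3 were at least 2-fold higher, against 10.5% of all genes, and 1 was 2-fold lower, against 8.23%, with a median of 0.07. After normexp these counts were 1 and 0, beside 666 and 250 of all 17499 genes. In bulk samples such as these, fewer cells of a type and less RNA per cell cannot be told apart.

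The tuft marker difference was further down within Lgr5- than within Lgr5+ for most members. Of 43 genes measured in both, 36 (83.7%) had the higher difference within Lgr5+, against 50.8% of all genes, and the median gap was 0.87, against 0.02. Multiplying an array by a constant moves both medians alike and not their distance, and the gap rests on 1 array of each kind and was not tested.

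Comparing Lgr5+ with Lgr5- cells asked how the genes differed with the stem cell receptor, within each tuft marker class. Within tuft marker-, 39 of the 44 genes were lower in Lgr5+ than in Lgr5- cells, where 49.7% of all 17525 genes were lower, and 5 were higher, against 50.3%. At least 2-fold lower were 11 of them, against 5.31% of all genes, and none was 2-fold higher, against 6.62%. The median of the 44 was -0.46 and that of all genes 0.01, and after normexp 4 were 2-fold lower, beside 168 of all 17525 genes. Within tuft marker+, 27 of 43 genes were higher in Lgr5+ cells and 16 lower, against 47.7% and 52.3% of all genes. There 6 were at least 2-fold higher, against 8.97% of all genes, and none was 2-fold lower, against 11.5%. After normexp none was 2-fold higher, beside 382 of all 17622 genes. The median of 0.12 lay 0.16 above that of all genes. With the authors' scaled values, which shift all genes of an array alike, it was -0.05 and that of all genes -0.21, so its sign follows the scaling and the distance does not. The 4 pairs share arrays, and the Lgr5- tuft marker- array stands in both pairs in which the genes were lower.

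**Figure D2:**
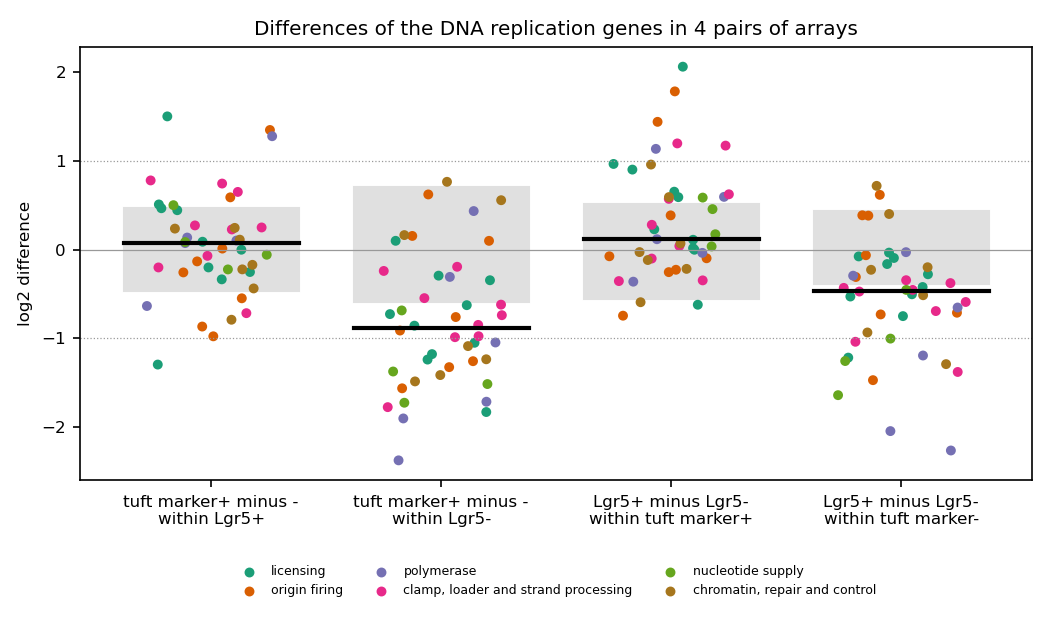
Log2 difference of each replication gene (vertical axis) in the 4 pairs of arrays (horizontal axis), coloured by role, with sideways scatter only to separate the points. Black lines are the medians of the genes, 0.07, -0.88, 0.12 and -0.46 from left to right, grey boxes span the middle quartiles of all measured genes, and dotted lines mark 2-fold.

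**Figure D3:**
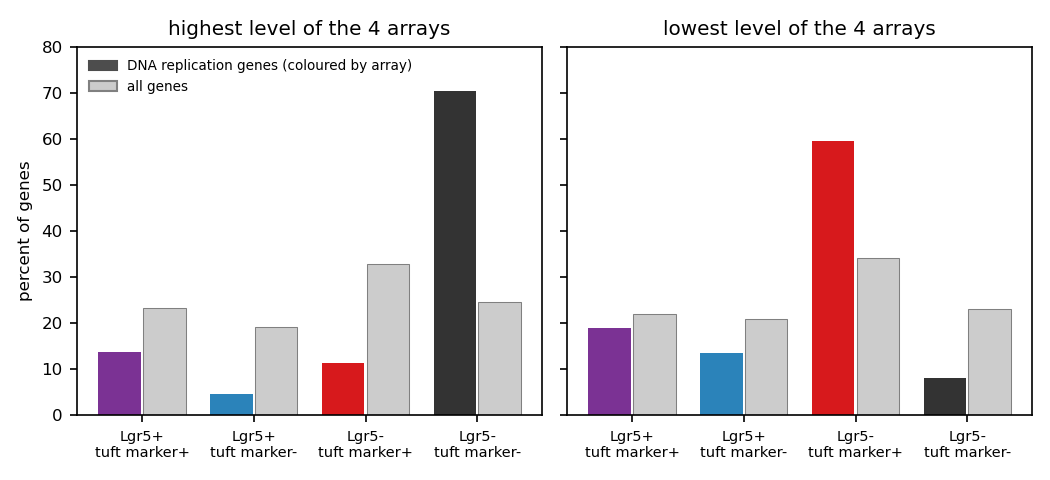
Percent of genes (vertical axis) for which each array (horizontal axis) had the highest level (left panel) or the lowest (right panel), for the replication genes (coloured bars) and for all genes (grey bars). The Lgr5- tuft marker- bar reaches 70.5% on the left, and the Lgr5- tuft marker+ bar 59.5% on the right.

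The promoter windows of the genes were searched for letters that E2F factors are known to bind, because E2F1 is itself a member. RefSeq windows of the GRCm38.p6 build, from 250 bases before to 50 after the start of the gene, were at hand for 37 of the 44 genes, and Mcm4, Gins1, Gins2, Gins4, Prim2, Pole and Rfc2 were not among them. The letters searched, on both strands, were TTTCGCGC, TTTGGCGC, TTTCCCGC and TTTGCCGC, which can overlap each other. They stood in the windows of 14 of the 37 genes, or 37.8%, and in those of 2.6% of all 27025 genes with a window. The 14 were Orc1, Cdc6, Cdt1, Mcm3, Mcm5, Mcm6, Mcm7, Gins3, Pola1, Pold1, Rfc3, Lig1, Uhrf1 and Hells. The letters CCAAT, of the NF-Y box, stood in 21 of the 37 (56.8%) against 41.1% of genes, and GGGCGG, of the GC box, in 29 (78.4%) against 38.2%.

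In 10 of the genes the E2F letters lay within the 190 bases before the start, and 6 of these are printed, 5′ to 3′ on the strand of the gene, with the matched letters in capitals. Orc1, Uhrf1 and Hells are shown because they were at least 2-fold lower with the tuft marker within Lgr5-, and Mcm5, Cdc6 and Pola1 because their differences there were the smallest of the 10. In Mcm5 the capitals are a match on each strand that overlap.
Orc1, chr4:108579264-108579453, plus strand: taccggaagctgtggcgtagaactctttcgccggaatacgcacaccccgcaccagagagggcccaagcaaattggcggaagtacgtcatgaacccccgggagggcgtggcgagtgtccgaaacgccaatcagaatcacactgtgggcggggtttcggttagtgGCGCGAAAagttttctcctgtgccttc
Uhrf1, chr17:56304123-56304312, plus strand: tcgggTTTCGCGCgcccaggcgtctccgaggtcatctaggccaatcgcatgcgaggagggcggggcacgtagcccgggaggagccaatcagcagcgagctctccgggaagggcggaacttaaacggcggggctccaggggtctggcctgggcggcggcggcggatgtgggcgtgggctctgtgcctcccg
Hells, chr19:38930800-38930989, plus strand: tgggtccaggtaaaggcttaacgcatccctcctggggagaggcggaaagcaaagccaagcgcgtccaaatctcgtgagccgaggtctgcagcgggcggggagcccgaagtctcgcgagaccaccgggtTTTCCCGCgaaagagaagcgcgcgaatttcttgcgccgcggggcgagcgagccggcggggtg
Mcm5, chr8:75109319-75109508, plus strand: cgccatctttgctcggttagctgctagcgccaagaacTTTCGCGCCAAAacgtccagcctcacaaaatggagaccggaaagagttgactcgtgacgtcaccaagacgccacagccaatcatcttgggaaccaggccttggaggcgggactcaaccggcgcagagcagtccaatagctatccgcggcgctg
Cdc6, chr11:98907961-98908150, plus strand: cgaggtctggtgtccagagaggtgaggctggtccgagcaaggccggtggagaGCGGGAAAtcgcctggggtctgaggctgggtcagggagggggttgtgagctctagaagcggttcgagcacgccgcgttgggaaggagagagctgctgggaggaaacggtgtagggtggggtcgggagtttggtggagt
Pola1, chrX:93632156-93632345, minus strand: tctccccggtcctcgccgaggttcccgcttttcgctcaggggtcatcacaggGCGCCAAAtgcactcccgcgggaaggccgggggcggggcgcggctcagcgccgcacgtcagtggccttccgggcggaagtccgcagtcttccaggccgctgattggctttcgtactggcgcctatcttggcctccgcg
The 6 were drawn from genes that hold the letters and by their difference, so they show where the letters lie and nothing more. Over all 37 genes, within Lgr5- the median tuft marker difference was -0.81 for the 14 genes with the letters, of which 5 were at least 2-fold lower. It was -0.91 for the 23 without, of which 10 were, against 12.3% of all genes. The Lgr5 difference within tuft marker- had a median of -0.45 in both sets. A match is a description of the letters and not of binding.

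Licensing genes were higher in Lgr5- tuft marker- cells than on the other arrays for 7 of 10, against 24.7% of all genes. Their median tuft marker difference was -0.79 within Lgr5- and 0.04 within Lgr5+. Within Lgr5- 4 were at least 2-fold lower (Orc1, Orc6, Mcm2 and Mcm3), against 12.3% of all genes. Orc1, the large ATP-binding subunit of the origin recognition complex, stood at the floor of -3.41 in Lgr5+ tuft marker+ cells and at -2.12, -2.79 and -1.61 in the others. Both tuft marker+ arrays were below both tuft marker- arrays. It was at least 2.45-fold lower with the tuft marker within Lgr5+ and 2.26-fold lower within Lgr5- (error 0.28 in log2), and it was the only member 2-fold apart the same way in both tuft marker pairs. Lower in both pairs were 1.44% of all genes. A fainter probe of Orc1 gave 1.31 within Lgr5+, the opposite sign, so that difference depends on the probe. Orc6, the smallest subunit, was 2.07-fold lower with the tuft marker within Lgr5- and 1.36-fold higher within Lgr5+.

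The subunits of the Mcm2-7 helicase shared directions on the Lgr5 axis, but the sizes differed. All were higher in Lgr5+ cells within tuft marker+ (0.02 to 2.06) and lower within tuft marker- (-1.22 to -0.03). In other settings the sign turned for Mcm3 and Mcm4 within tuft marker+ and for Mcm6 within tuft marker-. All but Mcm5 were lowest on the Lgr5- tuft marker+ array. Mcm2 had levels of -0.97, -1.47, -3.02 and -1.19. It was low in Lgr5- tuft marker+ cells and lay within a narrow span on the other 3 arrays. It was 3.55-fold lower with the tuft marker within Lgr5- (error 0.30) and 4.17-fold higher with Lgr5 within tuft marker+ (error 0.30), the widest differences among the subunits. These sizes and their rank depend on the processing. In other settings the differences came down to -0.57 and 0.73, and that of Mcm3 with the tuft marker within Lgr5- to -0.94. Mcm5 had levels of 2.50, 1.0, 1.85 and 1.75. It was high in Lgr5+ tuft marker+ cells and low in Lgr5+ tuft marker- cells, with the Lgr5- arrays between. The difference was 0.10 within Lgr5- and 1.5 within Lgr5+ (2.83-fold, error 0.20). In the latter pair Mcm5, which has 1 probe, alone stayed at least 2-fold higher in the 9 alternative settings other than the second probe. Of these settings, the detection rules, the mean of all probes and leaving out the floor could not change its value.

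Mcm6 had levels of 3.65, 3.65, 3.06 and 3.69, so that 3 arrays were level and the Lgr5- tuft marker+ array lower by 0.63 than its tuft marker- partner. Mcm7 was 1.81-fold lower with the tuft marker within Lgr5- and 1.38-fold higher within Lgr5+, where a fainter probe gave -0.93. Mcm3 was high on the Lgr5- tuft marker- array alone, at 2.64 against 1.40 to 1.51 on the others, a difference of -1.24 with the tuft marker within Lgr5- and of -1.22 with Lgr5 within tuft marker-. Mcm4 varied least of the subunits, between 2.11 and 2.40.

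Of the loading factors, Cdc6 and Cdt1 differed by less than 2-fold in every pair by the brightest probe, unlike Orc1 and Orc6. Cdc6, the ATPase that brings the helicase to the origin complex, had levels of 0.45, 0.71, 0.46 and 0.80, both tuft marker+ arrays below both tuft marker- arrays. Its tuft marker differences were -0.25 within Lgr5+ and -0.35 within Lgr5- (error 0.21 in each). A fainter Cdc6 probe gave 1.42 in the latter pair and -1.30 for Lgr5 within tuft marker+. Cdt1, its partner in loading, ran from -1.19 in Lgr5- tuft marker+ to -0.46 in Lgr5- tuft marker- cells. Its difference between those arrays was -0.73.

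Of the 8 origin firing genes 4 were highest in Lgr5- tuft marker- cells, against 24.7% of all genes. The median tuft marker difference of the 8 was -0.84 within Lgr5- and -0.20 within Lgr5+. The 4 subunits of GINS, which sits between the Mcm ring and the polymerase, differed from each other. Gins4 had levels of 0.29, -1.06, -1.15 and 0.41. It was high on the Lgr5+ tuft marker+ and the Lgr5- tuft marker- arrays and low on the other pair. The tuft marker difference was 1.35 within Lgr5+ and -1.56 within Lgr5- (error 0.21 in each), and the Lgr5 difference was 1.44 in tuft marker+ and -1.47 in tuft marker- cells. A fainter Gins4 probe gave 0.99, -1.54, 0.77 and -1.75 for the same pairs, with the same signs.

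Gins1 had levels of -2.49, -1.62, -2.23 and -0.91. Both tuft marker+ arrays were low, and it was 1.82-fold lower with the tuft marker within Lgr5+ and 2.50-fold lower within Lgr5-. Gins2 had levels of 2.09, 2.07, 2.31 and 1.69, lowest in Lgr5- tuft marker- cells, with a tuft marker difference of 0.62 within Lgr5-. A fainter Gins2 probe gave -1.55 in that pair, so its direction there depends on the probe. Gins3 was lower with the tuft marker in both Lgr5 classes, at -0.55 and -0.76.

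Cdc45, the factor that joins Mcm and GINS in the active helicase, had levels of -1.54, -0.57, -0.80 and -0.95. It was low in Lgr5+ tuft marker+ cells, with a tuft marker difference of -0.98 within Lgr5+ and 0.15 within Lgr5-, where a fainter probe gave -2.02. Mcm10, which helps the helicase to start, had levels of 0.89, 1.02, 0.51 and 0.41. Both Lgr5+ arrays were above both Lgr5- arrays, with Lgr5 differences of 0.38 in tuft marker+ and 0.62 in tuft marker- cells (error 0.21 in each), and in the latter pair most members were lower in Lgr5+ cells.

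The kinase that triggers firing was measured through both of its subunits. Dbf4, the activating subunit, had levels of -1.32, -1.91, -3.11 and -1.85, low on the Lgr5- tuft marker+ array. It was 2.39-fold lower with the tuft marker within Lgr5- and 3.44-fold higher with Lgr5 within tuft marker+ (error 0.30 in each), a pattern of levels like that of Mcm2. Cdc7, the catalytic subunit, was not above background in Lgr5+ tuft marker+ cells, and within Lgr5- it was 1.88-fold lower with the tuft marker.

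Polymerase genes had among the largest differences, with a median tuft marker difference of -1.38 within Lgr5- and 0.10 over the 5 measured within Lgr5+. Within Lgr5- 4 of 6 were at least 2-fold lower, against 12.3% of all genes. In that pair 2 of the 6, Pole and Prim2, were above background on the tuft marker- array only. The Lgr5 difference within tuft marker- had a median of -0.92, with 3 of 6 at least 2-fold lower, against 5.31% of all genes. There 2 of the 6, Pola2 and Prim2, were above background on the Lgr5- array only. Pole, the catalytic subunit of the leading strand polymerase, stood at -3.41 and -3.66 on both tuft marker+ arrays, where it was not above background, at -3.55 in Lgr5+ tuft marker- and at -1.28 in Lgr5- tuft marker- cells. Only the last array was high. Pole was at least 5.18-fold lower with the tuft marker within Lgr5- and 4.80-fold lower with Lgr5 within tuft marker- (error 0.33). These sizes depend on the processing, since in other settings the differences came down to -0.71 and -0.95. Prim2, described next, has limits only in these pairs, so the order of both genes is not known.

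Pold1, the catalytic subunit of the lagging strand polymerase, had levels of -0.70, -0.78, -1.30 and 0.42. It too was high on the Lgr5- tuft marker- array alone, and was 3.28-fold lower with the tuft marker within Lgr5- and 2.29-fold lower with Lgr5 within tuft marker- (error 0.21 in each). Within Lgr5+ its tuft marker difference was 0.07.

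The primase, which starts each strand with a short RNA, gave different patterns for its subunits. Prim2, the large subunit, had levels of -2.52, -3.80, -3.66 and -1.76, and on both arrays in the middle of that order it was not above background. It was measured on the Lgr5+ tuft marker+ and the Lgr5- tuft marker- arrays, the same arrays on which Gins4 was high. The tuft marker difference was at least 1.28 within Lgr5+ and lay at -1.90 or further down within Lgr5-, and the Lgr5 difference was at least 1.13 within tuft marker+ and -2.04 or further down within tuft marker-. In other settings these came as near to 0 as 0.54, -0.54, 0.35 and -0.74. Prim1, the catalytic subunit, was lower with the tuft marker by -0.64 within Lgr5+ and -1.05 within Lgr5-.

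Of the polymerase alpha genes, Pola1, the catalytic subunit, lay between -1.76 and -1.30 and was highest in Lgr5- tuft marker+ cells. Its tuft marker difference of 0.43 within Lgr5- was -1.03 with a fainter probe. Pola2, the accessory subunit, had levels of -3.26, -3.57, -3.23 and -2.92 and was above background on neither Lgr5+ array. Its difference within Lgr5- was -0.31, and within Lgr5+ it was not measured.

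Genes of the sliding clamp, its loader and the processing of strands had a median tuft marker difference of -0.74 within Lgr5- and 0.25 within Lgr5+. Highest in Lgr5- tuft marker- cells were 7 of 9, against 24.7% of all genes. Pcna, the sliding clamp, had levels of 3.55, 3.30, 3.27 and 3.89. The Lgr5- tuft marker- array was highest and the other 3 lay within a narrow span. Pcna was 1.54-fold lower with the tuft marker within Lgr5- and 1.51-fold lower in Lgr5+ cells within tuft marker- (error 0.20 in each), while the other differences were 0.25 and 0.28.

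Rpa2, a subunit of the protein that covers single strands, was 3.42-fold lower with the tuft marker within Lgr5- and 2.60-fold lower in Lgr5+ cells within tuft marker-, the largest differences of this group. Rpa1, the large subunit of the same protein, was 1.46-fold and 1.62-fold lower in these pairs and was not above background in Lgr5+ tuft marker+ cells. The clamp loader genes spread apart: Rfc5 and the flap nuclease gene Fen1 were 2.29-fold and 2.25-fold higher with Lgr5 within tuft marker+, while Rfc2 was 2.05-fold lower in Lgr5+ cells within tuft marker-. Rfc3 and Rfc4 differed by less than 2-fold in every pair by their brightest probes, while a fainter Rfc3 probe gave -1.15 for the tuft marker within Lgr5+ and a fainter Rfc4 probe, above background on 2 arrays, -1.46 within Lgr5-. Lig1, the ligase that seals the lagging strand, ran from 3.25 to 3.72 with tuft marker differences of 0.27 and -0.24.

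All 4 nucleotide supply genes were highest in Lgr5- tuft marker- cells, against 24.7% of all genes. Their median tuft marker difference was -1.44 within Lgr5- and 0.01 within Lgr5+. Within Lgr5- 3 of 4 were at least 2-fold lower, against 12.3% of all genes. Their median Lgr5 difference within tuft marker- was -1.13, again with 3 of 4, against 5.31%. Rrm2, the regulated subunit of ribonucleotide reductase, had levels of -0.41, -0.91, -1.0 and 0.73. The last array stood above the others, which spanned a narrow range. Rrm2 was 3.30-fold lower with the tuft marker within Lgr5- and 3.12-fold lower in Lgr5+ cells within tuft marker- (error 0.21 in each), and its difference within Lgr5+ was 0.50.

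Tyms, which makes thymidylate, was at 0.44 to 0.70 on 3 arrays and 1.96 on the Lgr5- tuft marker- array, and was 2.86-fold and 2.39-fold lower in the same pairs. Tk1, the thymidine kinase of S phase, was 2.59-fold and 2.0-fold lower. Rrm1, the large subunit of the reductase, moved less, at 1.61-fold and 1.37-fold lower.

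The last group joins chromatin, repair and control genes, and its median tuft marker difference was -1.09 within Lgr5- and -0.17 within Lgr5+. Uhrf1, which reads hemimethylated DNA and brings the maintenance methyltransferase, stood at 1.51, 1.73 and 1.54 on the first 3 arrays and at 3.02 in Lgr5- tuft marker- cells. It was 2.80-fold lower with the tuft marker within Lgr5- and 2.45-fold lower in Lgr5+ cells within tuft marker- (error 0.20 in each). Hells, a remodeller that aids DNA methylation, had levels of -3.07, -3.18, -3.66 and -2.24 and was not above background in Lgr5- tuft marker+ cells. It was at least 2.66-fold lower there than in the tuft marker- partner. Uhrf1 and Hells both have E2F letters in the stretches printed above, as does Mcm5, which did not differ in that pair by more than 0.10.

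Chaf1a and Chaf1b, subunits of the complex that puts histones on new DNA, went opposite ways. Chaf1a was 2.35-fold lower with the tuft marker within Lgr5-. Chaf1b had levels of -0.26, 0.18, 0.33 and -0.22, high on the Lgr5+ tuft marker- and the Lgr5- tuft marker+ arrays, with differences of -0.44 within Lgr5+ and 0.56 within Lgr5-. Slbp, which binds the stem-loop of histone messages, was 2.12-fold lower within Lgr5- and 1.73-fold lower within Lgr5+, where a fainter probe gave 0.35.

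E2f1, the transcription factor, ran opposite to most of the 44 genes. Its levels were -0.57, -0.39, -0.35 and -1.11, lowest in Lgr5- tuft marker- cells and close together elsewhere. The tuft marker difference within Lgr5- was 0.76 and the Lgr5 difference within tuft marker- 0.72 (error 0.21 in each), the highest of any member in both of these pairs. The 1 probe of Ung, which removes uracil from DNA, had levels of 10.14, 9.90, 10.26 and 10.10, nearly flat. Its mean level was 10.1, and the next highest among the 44 genes was that of Mcm6 at 3.51. All 4 levels were above the log2 of the summed signal of 20 ribosomal protein genes, which was at most 9.78, in Lgr5- tuft marker- cells. Whether this probe reads Ung RNA alone was not tested, so the values given for Ung are those of the probe. Without Ung the median tuft marker difference of the members within Lgr5+ was 0.04 and the median Lgr5 difference within tuft marker+ 0.14.

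**Figure D4:**
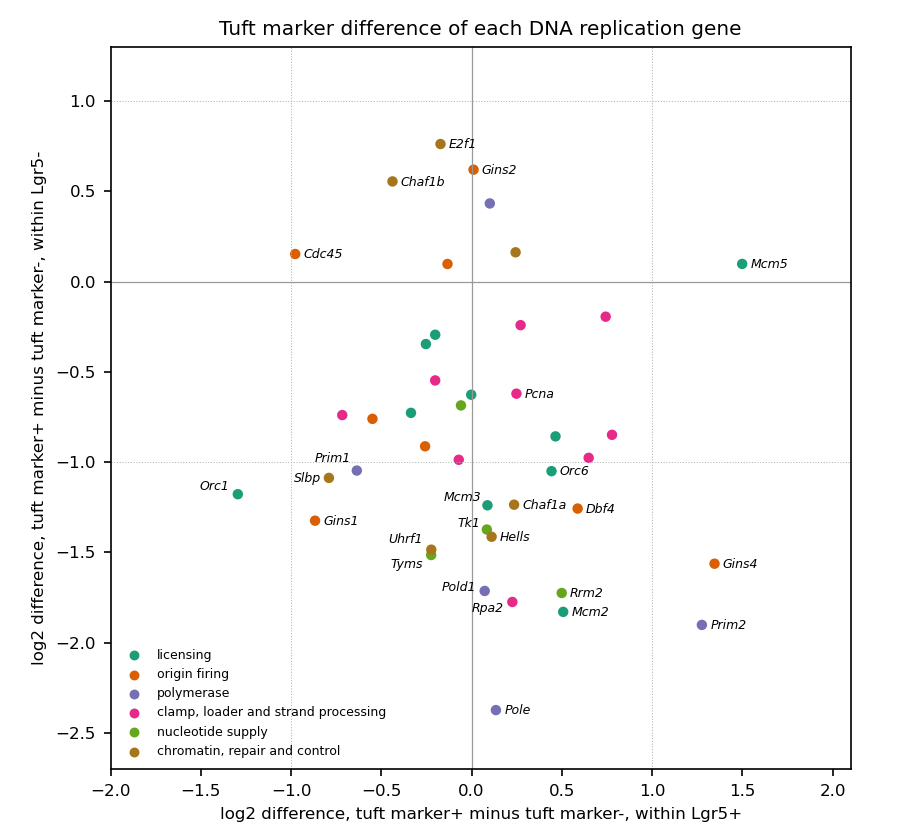
Tuft marker difference of each replication gene within Lgr5+ (horizontal axis, log2) and within Lgr5- (vertical axis, log2), coloured by role, for the 43 genes measured in both pairs, with dotted lines at 2-fold. Most points lie below 0 on the vertical axis and around 0 on the horizontal axis, Orc1 is the only gene past 2-fold downwards on both, and Gins4 and Prim2 lie at the lower right.

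Past 2-fold in opposite directions in both pairs of an axis were 2 members, Gins4 and Prim2, of 43, on the tuft marker axis, where 2.67% of all genes were, and the same 2 on the Lgr5 axis, where 2.52% were. No member was 2-fold higher in both tuft marker pairs (4.83% of all genes), and none was 2-fold higher or lower in both Lgr5 pairs (0.74% and 0.594%).

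Other genes of the same process were set beside the 44. Of 46 further replication genes, the median tuft marker difference was -0.64 within Lgr5-, with 14 of 45 measured at least 2-fold lower and 3 higher, against 12.3% and 16.6% of all genes. Within Lgr5+ it was -0.04, with 7 of 46 lower and 3 higher, against 8.23% and 10.5%. Recql4, a helicase needed at origins, was lowest on this axis by the mean of both pairs, at 2.49-fold lower within Lgr5+ and 4.72-fold lower within Lgr5-. Pold4, a small polymerase subunit, was 2.36-fold and 2.04-fold higher with the tuft marker, and Donson, a factor of replisome assembly, differed by 0.75 and 1.07.

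On the Lgr5 axis the same 46 genes had medians of 0.19 within tuft marker+, with 7 of 44 at least 2-fold higher and 1 lower, against 8.97% and 11.5% of all genes, and -0.25 within tuft marker-, with 1 of 46 higher and 5 lower, against 6.62% and 5.31%. By the mean of both pairs, Dck, a deoxynucleoside kinase, and Recql4 were the lowest on this axis, with Dck at -0.62 and -1.10 and Recql4 at -0.31 and -1.23. Pole2, the second subunit of the leading strand polymerase, was 2.97-fold and 1.64-fold higher in Lgr5+ cells, although Pole was lower in the latter pair. Topbp1, a scaffold of origin firing, differed by 1.52 and 0.12.

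Genes that control the entry into S phase numbered 28. They had median tuft marker differences of 0.06 within Lgr5+, with 2 of 27 at least 2-fold higher and 2 lower, against 10.5% and 8.23% of all genes, and -0.31 within Lgr5-, with 6 of 26 lower and none higher, against 12.3% and 16.6%. Cdk2, the kinase of the G1 to S transition, was at least 3.11-fold lower within Lgr5+ and 2.28-fold lower within Lgr5-, and Ccnd1, which encodes cyclin D1, was 3.46-fold lower within Lgr5- with a difference of 0.16 within Lgr5+. Rbl1, a relative of the retinoblastoma gene, was higher with the tuft marker, at 0.79 and 0.58, and Cdkn1a, the p21 inhibitor, was 2.78-fold higher within Lgr5+ with -0.15 within Lgr5-. On the Lgr5 axis the medians were 0.08 and -0.19, with 2 of 26 at least 2-fold higher and 2 lower within tuft marker+ (8.97% and 11.5% of all genes) and 5 of 27 lower within tuft marker- (5.31%). Rb1, the retinoblastoma gene, differed by -1.81 and -0.34, Cdk2 by -1.22 or further down and by -0.77, Skp2, a ubiquitin ligase subunit of the cell cycle, by 1.83 and 0.18, and Rbl1 by 0.64 and 0.43.

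Mitosis genes had median tuft marker differences below 0 in both Lgr5 classes. Their medians over 20 genes were -0.33 within Lgr5+, with 3 at least 2-fold lower and none higher, against 8.23% and 10.5% of all genes, and -1.08 within Lgr5-, with 11 lower and 1 higher, against 12.3% and 16.6%. Kif11, a spindle motor, was 4.42-fold and 4.82-fold lower, and Ccnb1, which encodes cyclin B1, 2.44-fold and 4.49-fold lower. Aurkb, a kinase of chromosome segregation, was 3.18-fold higher within Lgr5- and differed by -0.14 within Lgr5+, and Plk1, a mitotic kinase, by 0.58 and -0.23 in the same order. With Lgr5 the medians were 0.16 and -0.23, with no gene of 19 past 2-fold within tuft marker+ (8.97% of all genes higher and 11.5% lower) and 1 of 20 lower within tuft marker- (5.31%). The checkpoint genes Bub1 and Bub1b differed by -1.22 and -0.88 within tuft marker-, and Kif23 and Tpx2, of the spindle, by 0.96 and 1.0 within tuft marker+.

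**Figure D5:**
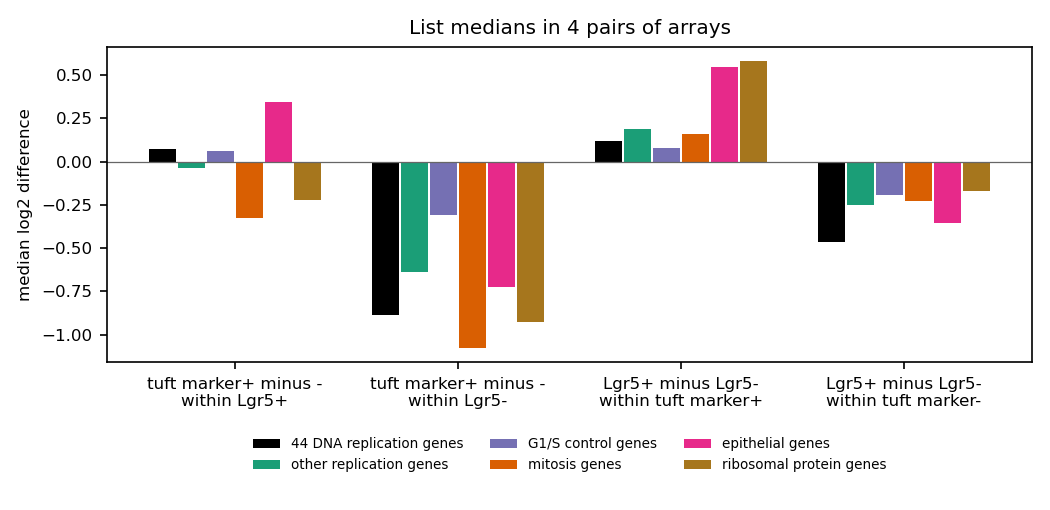
Median log2 difference (vertical axis) of 6 gene lists in the 4 pairs of arrays (horizontal axis), 1 bar per list. Within Lgr5- the bars of all 6 lists lie below 0, from -0.31 for the S phase entry genes to -1.08 for the mitosis genes, with the 44 replication genes at -0.88.

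Genes of other kinds differed in the same pairs. Within Lgr5-, epithelial genes had a median tuft marker difference of -0.73 over 10 genes and ribosomal protein genes of -0.93 over 20, close to the -0.88 of the replication genes. Macrophage markers had a median of 3.84 and stromal markers of 3.77 there. All 10 stromal and 10 of 12 macrophage markers were at least 2-fold higher, against 16.6% of all genes. Goblet cell markers had a median of -1.54 there, with all 8 at least 2-fold lower, against 12.3% of all genes. T and NK cell markers had one of 1.27, with 5 of 8 at least 2-fold higher, against 16.6%. The log2 of the summed signal of the macrophage markers was 6.31, 5.33, 7.04 and 5.20 on the 4 arrays, with 12, 9, 12 and 11 of 12 above background. That of the stromal markers was 3.60, 1.01, 5.25 and 1.20, with 7, 7, 10 and 6 of 10 above background. Adgre1, C1qa and C1qc were not above background in Lgr5+ tuft marker- cells, nor were Lum, Pdgfra and Pdgfrb on any array but Lgr5- tuft marker+. That of the epithelial genes was 8.05, 7.30, 7.75 and 7.67. Within Lgr5+ the macrophage, stromal and epithelial medians were 2.94, 2.76 and 0.35, while that of the replication genes was 0.07. With Lgr5 within tuft marker+ the epithelial median was 0.55 and that of the replication genes 0.12. In the other pair with lower replication genes, Lgr5 within tuft marker-, enterocyte markers had a median of -1.15. At least 2-fold lower were 8 of 9, against 5.31% of all genes. Epithelial genes had a median of -0.35 there, with all 10 lower by some amount, against 49.7% of all genes. Paneth and goblet cell markers had medians of 1.18 and 0.84 there, and macrophage and stromal markers of -0.45 and -0.11. The part of these cells in the replication gene differences was not tested.

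The scanner's own error of a difference had a median of 0.21 in each pair, and it says how well a spot was read, with nothing on the spread between animals or sorts. The tuft marker difference within Lgr5- exceeded 2 such errors for 30 of 41 genes with an error, and the Lgr5 difference within tuft marker- for 26 of 42. In both other pairs 17 did, of 38 and of 37. The 22 members with the higher mean level had a median tuft marker difference of -0.66 within Lgr5-, with 6 at least 2-fold lower. The 22 with the lower mean level had one of -1.21, with 13, against 12.3% of all genes. The share among genes of like level was not computed. Of 18 genes with more than 1 probe, 12 had 2 probes above background on all arrays, and these gave the same sign in 10 of 12 for both pairs in which the genes were lower, and in 5 and 8 of 12 for the tuft marker within Lgr5+ and Lgr5 within tuft marker+.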

How the data were processed

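Per the labels' protocols, 13 ng of total RNA per population was labelled with a low-input kit. Per the file headers, the deposited intensity had the background subtracted and the trend across the array removed by Agilent Feature Extraction 12.0.3.1, where the submitters' processing notes name 11.5.1.1. The deposited files also hold flags of 0 or 1 for outliers, saturation and signal above background. The authors also deposited a table whose linear intensity was, from the values, the scanner's multiplied by 1 constant per array (10.9, 7.82, 11.9 and 9.08), a scaling that no label states. Its column medians were 279, 286, 365 and 253.

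Control spots, and the 91 to 122 spots per array flagged as outliers, were left out, and no spot was saturated. Signals were converted to log2, the array's 75th percentile was subtracted, and copies of a probe were averaged. RefSeq genes of GRCm38.p6 named 32989 of 56605 probes by accession. The level of a gene was that of its brightest probe, and a gene counted as above background on an array if any of its probes did. A gene entered a pair if above background on at least 1 array of that pair, and values below the array's floor (-3.41, -3.86, -3.66 and -3.71) were raised to it.

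Members, roles and lists were chosen with earlier results of these data known. Levels were named for members 2-fold apart in both pairs of an axis, for the 3 largest differences each way in a pair, for the 3 highest and 3 lowest mean levels, and for Pcna, Mcm2, Cdc6, Rrm2 and E2f1. Others appear by range or difference. Of the other lists, the 2 genes farthest each way per axis are named, except 1 that is not reported here. The second probes quoted were chosen with their values in view.

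Alternatives were other scalings, quantile normalization, normexp with an offset of 50 (limma 3.58.1), other probes, other detection rules, no floor, and a threshold of 1.5-fold. Normexp used the median signal, since the files have no mean signal. No test between populations could be made, and the calculation was tested on simulated data. Python 3.11.15, numpy 2.4.6 and pandas 2.3.3 were used.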

Additional observations from a re-analysis of the deposited data

Results flagged for a closer look

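Gins4 and Prim2, 2 of 43 members, differed at least 2-fold in opposite directions between the classes of both axes. Of all genes 2.67% did so on the tuft marker axis and 2.52% on the Lgr5 axis. Both axes use the same 4 levels of a gene, so the second is not a separate result. With 1 array per population, this difference was not tested. The tuft marker difference of Gins4 was 1.35 within Lgr5+ and -1.56 within Lgr5-, and its Lgr5 difference was 1.44 in tuft marker+ and -1.47 in tuft marker- cells. For Prim2, which was not above background in the Lgr5+ tuft marker- and the Lgr5- tuft marker+ cells, so that all 4 values are limits, the tuft marker difference was 1.28 and -1.90 and the Lgr5 difference 1.13 and -2.04 in the same order. Both genes were thus highest in Lgr5- tuft marker- cells and next in Lgr5+ tuft marker+ cells.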

How the results depend on the processing

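With 1 array per population nothing was tested, so each value describes these arrays. No paired analysis was possible because each population has 1 array and the labels give no replicate numbers. Under the 9 alternatives that leave out the second probe, no member at least 2-fold apart (4, 19, 6 and 11 in the 4 pairs) changed sign. The second probe, where there was one (2, 8, 1 and 5 of these), turned the sign of Orc1 within Lgr5+ alone. Pold1, Rrm2, Tyms and Uhrf1 were 2-fold lower with the tuft marker within Lgr5- in all 9. Rrm2, Tyms and Uhrf1 were so with Lgr5 within tuft marker- too. Of the 9, the detection rules change which genes enter and not their values. Leaving out the floor could not move these genes, which lay above it. The mean of all probes could not move Pold1 and Rrm2, which have 1 probe each.

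At 1.5-fold, counts higher and lower were 7 and 6 (tuft marker within Lgr5+), 2 and 30 (within Lgr5-), 14 and 3 (Lgr5 within tuft marker+) and 2 and 18 (within tuft marker-). The share of all genes past 1.5-fold was not computed, so these counts have nothing to stand against. Scaling to the median of the array gave medians of -1.12 for the tuft marker within Lgr5- and 0.34 for Lgr5 within tuft marker+. It left 3 genes highest on the Lgr5- tuft marker+ array and 4 lowest on the Lgr5+ tuft marker+ array, against 24.3% and 17.5% of all genes. With normexp, 1 gene was higher and 0 lower with the tuft marker within Lgr5+, and 5 were lower within Lgr5- (median -0.43). With Lgr5, 0 were higher within tuft marker+ and 4 were lower within tuft marker-. Lowest on the Lgr5+ tuft marker- array were 8, against 27.3% of all genes. Over all genes normexp left 666 higher and 250 lower, 951 and 789, 382 and 390, and 134 and 168 in the 4 pairs, against 1833 and 1441, 2969 and 2209, 1580 and 2023, and 1160 and 931. The authors' scaled values gave a median of -0.59, 1 higher and 12 lower for the tuft marker within Lgr5-, beside 4480 and 1168 of 17908 genes. They gave 8 highest on the Lgr5- tuft marker+ array, against 43% of all genes. Lowest on the Lgr5+ tuft marker-, the Lgr5- tuft marker+ and the Lgr5- tuft marker- arrays were 8, 14 and 5, against 25%, 23.1% and 31.7%. The mean of all probes gave 3 higher and 2 lower with the tuft marker within Lgr5+, beside 1534 and 1269 of 17499 genes. Within Lgr5- it gave 0 and 22, beside 2641 and 2135 of 17908. With Lgr5 within tuft marker+ it gave 7 higher and 1 lower, beside 1310 and 1768 of 17622. The second probe, for 18 genes, gave 1 higher and 3 lower with the tuft marker within Lgr5+, beside 599 and 539 of 7274 genes. Within Lgr5- it gave 1 higher and 13 lower, beside 680 and 1166 of 7327 genes, and a median of -1.24. For Lgr5 it gave 4 higher and 2 lower within tuft marker+, beside 664 and 507 of 7294 genes, with a median of 0.43. Within tuft marker- it gave 0 and 6, beside 339 and 441 of 7249. Without a floor 6 were higher and 1 lower with Lgr5 within tuft marker+, beside 1716 and 2920 of 17622 genes. With only genes above background on both arrays, chosen after seeing the data, 2 were higher and 0 lower with the tuft marker within Lgr5+. Within Lgr5- 0 were higher and 16 of 41 lower under that rule. The share of all genes past 2-fold under that rule is not given, so these counts have nothing to stand against. The cause of these shifts was not tested.

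Scaling moved the median of all genes with the tuft marker within Lgr5- from 0.08 to -0.15 (median of the array), 0.19 (percentile over detected probes) and 0.37 (authors' values), and the share of 2-fold calls that were higher from 57.3% to 37.4%, 66.2% and 79.3%. With Lgr5 within tuft marker+ that share moved from 43.9% to 66.7% (median) and 28% (authors' values). The members' median minus that of all genes was -0.96 for the tuft marker within Lgr5- under every scaling by a constant, -0.90 after quantile normalization and -0.48 after normexp.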
